A study of Mus musculus with 4 samples.

Results

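The genes described here encode subunits of the mitochondrial respiratory chain and enzymes of the tricarboxylic acid (TCA) cycle. They were given as a list of 55 symbols, 41 for the respiratory chain with its carrier cytochrome c and 14 for the TCA cycle, and each gene was read from its brightest probe set with a single gene symbol. A probe set of that kind was found for 53 of the 55 genes, out of 18194 genes on the array, and all 53 were bright enough to be tested, among 10873 tested genes in all. Ndufs6 and Cox7b had none, so their levels were not analysed here and they enter only the promoter counts. RNA was measured on 2 arrays of cells from Ets1-deleted mice and 2 of cells from littermate controls, with 1 Affymetrix array per sample; Ets1 is a DNA-binding protein of the ETS family. All 4 samples came from C57BL/6 mice and were ILC2, group 2 innate lymphoid cells that make type 2 cytokines, grown for 2 weeks with IL-7 and IL-33 on OP9-DL1, a stromal cell line that presents a Notch ligand. ICOS-positive cells were then sorted. The labels name neither the Cre line or promoter behind the deletion, nor the animals' age, nor whether samples were pooled.

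The respiratory chain sits in the inner mitochondrial membrane. Complex I and complex II pass electrons from NADH and from succinate to ubiquinone, complex III passes them to cytochrome c and complex IV to oxygen, and the proton gradient that results drives ATP synthase. The TCA cycle oxidises acetyl groups in the matrix and supplies the NADH and succinate; complex II belongs to both. Lymphocytes use respiration for survival and memory and add glycolysis when they are activated, and most subunits of the chain are encoded in the nucleus.

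Ets1 itself was lower in the Ets1-deleted arrays on each of its 4 probe sets. The brightest read 138.1 and 180.2 in Ets1-deleted arrays, against 1272 and 1231 in controls, 7.93-fold lower; on a pair of others both Ets1-deleted values lay under the limit given next, so no fold is given for them. Whether their probes lie inside the deleted part is not stated in the labels. All 10 measured ILC2 markers were over the limit of 97.44 intensity units, the median of all probe sets, below which genes were not tested. At an adjusted p under 0.05 in limma 6 were called higher and 2 lower (80%, against 26.7% of all tested genes). The 2 lower were Klrg1 and Icos, with log2 differences, Ets1-deleted minus control, of -1.60 and -0.38. Summed intensities of the list were 26784 to 29220 in Ets1-deleted arrays and 21413 to 23631 in controls. Sums for markers of other cells also differed between the genotypes. For 15 myeloid genes they were 4573 to 4624 in Ets1-deleted arrays against 2539 to 2797 in controls. For 13 mast cell and basophil genes they were 4222 to 4382 against 2617 to 2631, and for 9 T cell genes 6180 to 6370 against 2972 to 3022. For 11 OP9 stroma genes they were 2375 to 2523 in Ets1-deleted arrays and 2849 to 3081 in controls. Called higher were 9 of 10 tested myeloid genes, 7 of 9 mast cell and basophil genes and 5 of 5 T cell genes, with 0 lower. Of 8 tested stroma genes 0 were called higher and 3 lower, while 26.7% of all tested genes were called either way. In the mast cell and basophil list Cpa3 read 1497 and 1261 in Ets1-deleted arrays and 85.9 and 78.3 in controls, much of the gap in its sum. Cpa3 was thus over the limit only in the Ets1-deleted arrays. Mcpt8 went the other way without being called, with 1097 and 1193 in Ets1-deleted arrays and 1337 and 1385 in controls. The mean over the 4 arrays was under the limit for 5 myeloid markers (Itgam, Cd14, Cebpa, Csf3r and Elane), which were not tested. The same held for 4 mast cell markers (Fcer1a, Ms4a2, Mcpt4 and Tpsab1). It also held for 4 T cell markers (Cd4, Cd5, Cd8a and Cd8b1) and 3 stromal markers (Pdgfra, Dcn and Lum). Single arrays of Mcpt4, Ms4a2, Elane and Itgam lay over the limit. Mcpt4 read 112.5 and 115.2 in Ets1-deleted arrays and 73.9 and 80.2 in controls. The part of such cells in the differences described here was not tested, and in bulk RNA fewer cells of a type cannot be told apart from less RNA per cell.

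Few of these genes were called different between the genotypes. Of 53 tested genes, 2 rose (Fh1 and Idh2, both of the TCA cycle) and 2 fell (Ndufa10 and Ndufa4, both listed under complex I) at an adjusted p under 0.05 in limma. That is 7.55% of them, while 26.7% of all tested genes passed the same threshold (13.9% higher and 12.8% lower). At an unadjusted p under 0.05 the count was 9 of 53, against 4098 of 10873. On its brightest probe set no gene of the 53 differed by more than 1.5-fold, a size that 12.4% of all tested genes exceeded. The median log2 difference, Ets1-deleted minus control, was 0.05 over the 53 genes and -0.00 over all tested genes, and the middle 80% of differences ran from -0.19 to 0.24 for these genes and from -0.41 to 0.45 for all tested genes. The 2 arrays of each group lay apart without overlap for 32 of the 53 genes (60.4%) and for 62.6% of all tested genes. Both Ets1-deleted values were above both controls in 21 of the 53 (30.9% of all tested genes) and below both in 11 of the 53 (31.7% of all tested genes).

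**Figure D1:**
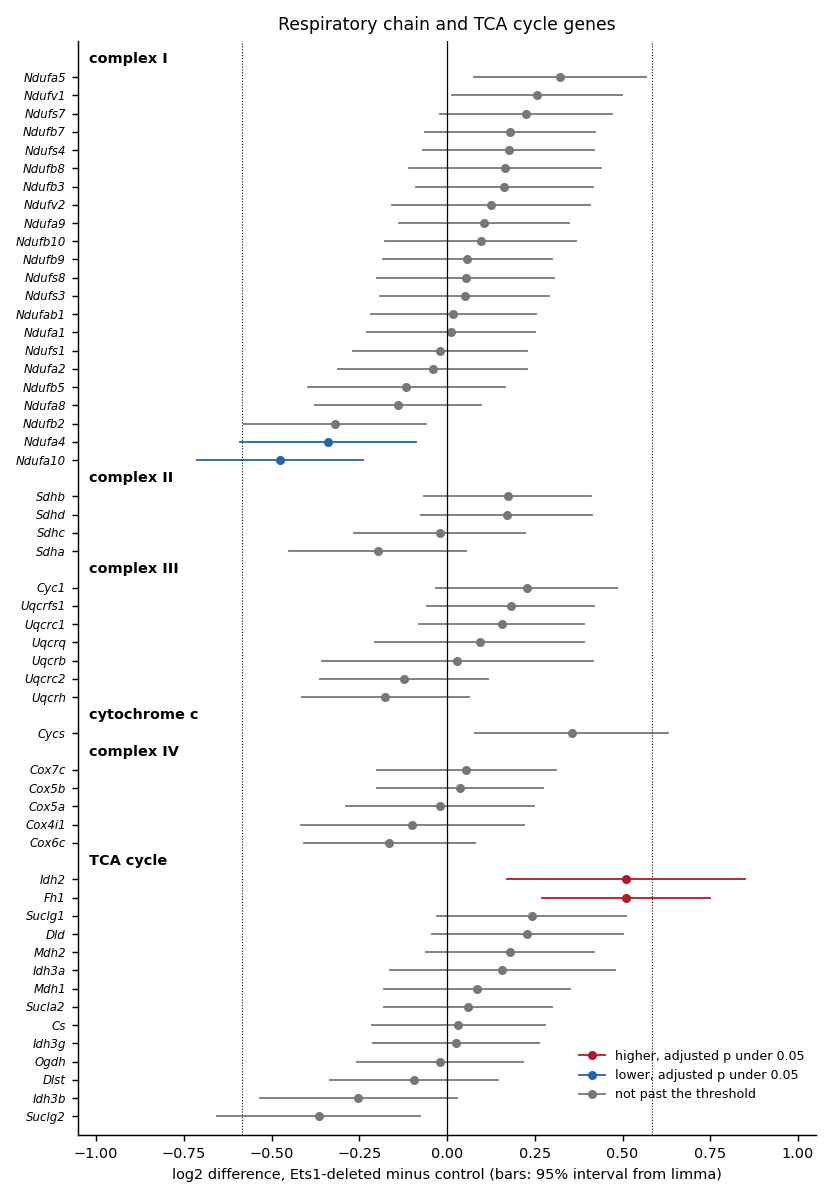
Log2 difference, Ets1-deleted minus control, of each of the 53 tested genes (points) with its 95% interval from limma (bars), grouped by complex; dotted lines mark a 1.5-fold change either way. Coloured points passed an adjusted p of 0.05: Idh2 and Fh1 to the right, Ndufa4 and Ndufa10 to the left, and the other 49 in grey.

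The intervals bound how far the genes that were not called could have moved. For 47 of the 53 genes (88.7%) the 95% interval of the difference, unadjusted, stayed inside a 1.5-fold change in both directions, as it did for 70.3% of all tested genes. The other 6 were Fh1, Idh2, Ndufa10, Ndufa4, Suclg2 and Cycs. Standard errors of the 53 differences ran from 0.11 to 0.18 on the log2 scale, with n = 2 arrays per group, so a small difference in a single gene was not detectable at this precision. When only genes above the 70th percentile of brightness were tested, 28.3% of all genes and 11.5% of the 52 respiratory and TCA genes left passed.

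**Figure D2:**
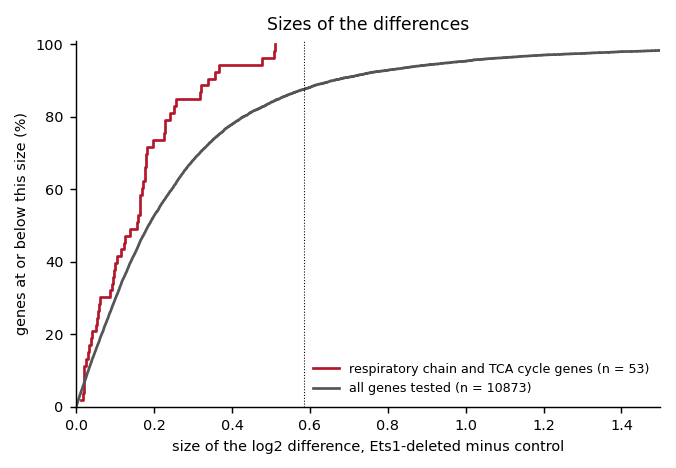
Cumulative share of genes (vertical axis, percent) at or below a given size of the log2 difference between Ets1-deleted and control arrays (horizontal axis), for the 53 genes and for all 10873 tested genes; the dotted line marks 1.5-fold. The curve of the 53 genes ends at 0.51, while 12.4% of all tested genes lie beyond the dotted line.

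Respiratory chain promoters are known for binding GABP, a factor whose DNA-binding subunit belongs to the same ETS family as Ets1, and the factor NRF1. Promoter windows of RefSeq (GRCm38.p6, 250 bases before to 50 bases after a gene's start) were found for 44 of the 55 genes. The ETS motif CCGGAAG, searched on both strands (CTTCCGG on the other), was in the window of 9 of the 44 genes (20.5%, 95% Wilson interval 11.2 to 34.5%), against 21.1% of the 8831 tested genes with a window and 9.93% of all 27025 genes of the table. The shorter CCGGAA, which is contained in it, was in 17 of 44 (38.6%), against 32.6% of tested genes. Part of the NRF1 motif, GCGCATG, also searched on both strands, was in 7 of 44 (15.9%, interval 7.93 to 29.4%), against 8.14% of tested genes. Among the 9 genes with CCGGAAG, log2 differences between the genotypes ran from -0.25 to 0.18 with none called. Among the 33 tested genes with a window and without it they ran from -0.48 to 0.51, as they did (-0.48 to 0.51) among the 17 genes with the shorter CCGGAA. The matches are letters in a window and were not tested for binding. Shown are the stretches of 5 genes with CCGGAAG before the start, and of the 2 called genes with CCGGAA, with the motif in capitals and each sequence read along the gene.
Ndufb7: cctagatgacCCGGAAGacactgaagg
Ndufs3: ccgcgtccgcCCGGAAGaagagtcact
Sdhd: cgtctcctgcCTTCCGGttcacgcttc
Uqcrh: gtatgccgcaCTTCCGGccaggtcgcc
Idh3g: gctctaggcaCCGGAAGggggcgtaag
Fh1: acgagcgtggCCGGAAtctgacgtat
Ndufa10: cgtcccagttCCGGAAtattttcttt
The stretches lie at chr8:83566728-83566754 (plus strand, Ndufb7), chr2:90904732-90904758 (minus, Ndufs3), chr9:50603879-50603905 (minus, Sdhd), chr4:116075064-116075090 (minus, Uqcrh), chrX:73786985-73787011 (minus, Idh3g), chr1:175625622-175625647 (minus, Fh1) and chr1:92473855-92473880 (minus, Ndufa10). With the start counted as base 0, the first capital stands at -20 in Ndufb7, -27 in Ndufs3, -46 in Sdhd, -10 in Uqcrh, -104 in Idh3g, -2 in Fh1 and -112 in Ndufa10. The windows of Ndufa4 and Idh2 held neither CCGGAAG nor CCGGAA.

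In complex I as listed, the entry point for electrons from NADH, 0 of 22 tested genes rose and 2 fell. This count includes Ndufa4, and the median log2 difference was 0.06. Ndufa10, an accessory subunit of the membrane arm, read 1617 and 1677 intensity units in the Ets1-deleted arrays, against 2271 and 2310 in the controls. The groups were far apart compared with the distance between replicates. Its log2 difference was -0.48 ± 0.11 (SE), a 1.39-fold lower level (limma, adjusted p = 0.00609, 95% interval -0.71 to -0.24). A dimmer Ndufa10 probe set read 106.4 and 103.5 in Ets1-deleted arrays and 110.3 and 99.5 in controls, a difference of 0.00 near the limit. With the mean over both probe sets Ndufa10 still fell, by 0.24 on the log2 scale (limma, adjusted p = 0.0473).

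Ndufa4 was first listed as a complex I subunit and is now assigned to complex IV. It read 1689 and 1899 in Ets1-deleted arrays, against 2183 and 2352 in controls. Both Ets1-deleted values lay below both controls, with a log2 difference of -0.34 ± 0.12 and an adjusted p of 0.0475 in limma. That p lies close to the threshold, and the call was lost without Ets1-deleted replicate 1, without either control and under 3 of the other settings, which left the direction in place.

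The NADH-oxidising module of complex I (Ndufv1, Ndufv2, Ndufs1, Ndufs4, Ndufa2) had 0 called genes of 5 in limma and 1 with an unadjusted p under 0.05. That gene was Ndufv1, whose product holds the flavin that accepts electrons from NADH. It read 1801 and 1810 in Ets1-deleted arrays and 1449 and 1577 in controls, a difference of 0.26 ± 0.11 (limma, adjusted p = 0.111). Its 2 other probe sets differed by 0.33 each, and the mean over all 3 passed (0.31, adjusted p = 0.0348 in limma). Ndufs1, the largest subunit of this module, read 451.3 and 411.7 in Ets1-deleted arrays and 421.7 and 453.2 in controls, so the groups overlapped. The 5 genes of the quinone-reducing module, which hands the electrons to ubiquinone, also had 0 called in limma and 1 at an unadjusted p under 0.05. All 5 differences were positive, between 0.05 for Ndufs3 and 0.32 for Ndufa5. Ndufa5 read 3208 and 3003 in Ets1-deleted arrays, against 2388 and 2584 in controls (0.32 ± 0.11, limma adjusted p = 0.0525). The groups thus lay apart while the threshold was missed. Of 14 alternative settings 6 called Ndufa5, among them the main fit with the threshold raised to 0.1. Its second probe set differed by 0.21.

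In the membrane arm, which pumps protons, 1 of 11 genes (Ndufa10) was called and 7 of 11 differences were positive. Ndufb2 came closest to the threshold among the others, with 833.5 and 890.6 in Ets1-deleted arrays and 992.3 and 1164 in controls (-0.32 ± 0.12, limma adjusted p = 0.069); its second bright probe set differed by -0.27. Ndufab1, the mitochondrial acyl carrier protein, read 1643 and 1624 in Ets1-deleted arrays and 1594 and 1634 in controls. Ndufa1, needed for assembly of the membrane arm, read 3637 and 3407 in Ets1-deleted arrays and 3528 and 3458 in controls. In both genes the groups overlapped.

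Complex II, which oxidises succinate and links the TCA cycle to the chain, had 0 called of 4 in limma, and 0 at an unadjusted p under 0.05. Its catalytic flavoprotein gene Sdha read 1883 and 2163 in Ets1-deleted arrays and 2316 and 2313 in controls (-0.20 ± 0.12). The iron-sulfur subunit gene Sdhb read 2184 and 2094 in Ets1-deleted arrays and 1859 and 1937 in controls (0.17 ± 0.11), and the membrane anchor gene Sdhd differed by 0.17 ± 0.11. The signs of these 3 subunits were thus mixed on their brightest probe sets, with all 4 intervals of the complex inside 1.5-fold. A second bright Sdha probe set differed by only -0.02, with overlapping groups. Sdhc, the other anchor, read 995.8 and 1055 in Ets1-deleted arrays, and 1001 and 1080 in controls. Its second probe set differed by 0.24, without overlap.

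Complex III had 0 called of 7 in limma, and 0 at an unadjusted p under 0.05, with a median of 0.09. The electron-carrying subunit genes Cyc1 (cytochrome c1) and Uqcrfs1 (the Rieske iron-sulfur protein) differed by 0.23 ± 0.12 and 0.18 ± 0.11, and their groups did not overlap. Uqcrfs1 read 1286 and 1351 in Ets1-deleted arrays, against 1153 and 1172 in controls. The core subunit genes Uqcrc1 and Uqcrc2 gave 0.16 and -0.12, and the hinge protein gene Uqcrh gave -0.18, each also without overlap. A second probe set gave 0.04 for Uqcrc2 and -0.15 for Uqcrh, both with overlap. Cycs, which encodes the mobile carrier cytochrome c that can trigger apoptosis when released, read 6773 and 5439 in Ets1-deleted arrays and 4818 and 4673 in controls. Its difference of 0.36 ± 0.13 missed the threshold (limma, adjusted p = 0.0569). All 3 bright Cycs probe sets were higher, by 0.36, 0.51 and 0.40. Cycs was called under 7 of 14 alternative settings, among them the main fit with the threshold raised to 0.1.

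Complex IV, which reduces oxygen, had small differences among the genes listed under it here. None of these 5 tested genes was called in limma and 0 had an unadjusted p under 0.05. Their differences ran from -0.16 (Cox6c) to 0.05 (Cox7c). Ndufa4, called lower (-0.34), is not among them, since it was counted under complex I. The complex IV isoform genes Cox7a1, Cox6a2 and Cox4i2, called higher, are described below with the other chain subunits. The remaining Cox genes of that list were not called. Cox5b read 7965 and 8080 in Ets1-deleted arrays and 7731 and 7909 in controls (0.04 ± 0.11; -0.01 with the mean over its probe sets), and Cox5a read 5250 and 5327 in Ets1-deleted arrays and 4849 and 5929 in controls. Cox4i1, the regulatory subunit that binds ATP, read 2991 and 2175 in Ets1-deleted arrays and 2840 and 2626 in controls. Its 2 Ets1-deleted values lay on either side of the controls. Cox7c was measured only near the limit, with 131.1 and 147.6 in Ets1-deleted arrays and 140.4 and 127.8 in controls, and a difference near the limit can be understated on this scale.

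The TCA cycle had 2 called genes of 14, both higher, and a median difference of 0.07. Fh1 encodes fumarase, which turns fumarate into malate. It read 1461 and 1453 in Ets1-deleted arrays, against 988.7 and 1061 in controls. The distance between the groups was several times that between replicates, with a log2 difference of 0.51 ± 0.11, or 1.42-fold (limma, adjusted p = 0.00442, 95% interval 0.27 to 0.75). Fh1 and Ndufa10 were the only genes of the 53 called under all 14 alternative settings, with Fh1 between 0.46 and 0.56. Fh1, like Ndufa4, has only 1 probe set with a single symbol, so the mean over probe sets could not change its difference.

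Idh2 encodes the NADP-dependent isocitrate dehydrogenase of mitochondria, which makes NADPH. On its brighter probe set it read 631.9 and 780.5 in Ets1-deleted arrays and 422.0 and 575.7 in controls, a difference of 0.51 ± 0.16 (limma, adjusted p = 0.0292). The groups did not overlap, although the distance between replicates was large. Its second probe set went the other way, with 201.5 and 217.6 in Ets1-deleted arrays and 260.6 and 263.5 in controls (-0.32; adjusted p = 0.0539 in a limma fit of single probe sets). With the mean over both the Idh2 difference was 0.09 (limma, adjusted p = 0.564). The call was also lost without Ets1-deleted replicate 2 (0.36, adjusted p = 0.135 in limma) and without control replicate 1 (0.29, adjusted p = 0.252 in limma), and with no brightness filter or the array floor subtracted, and the direction of Idh2 rests on the choice of probe set. The NAD-dependent isocitrate dehydrogenase, which feeds complex I, has 3 subunit genes with no call among them. Its regulatory subunit gene Idh3b read 858.5 and 1038 in Ets1-deleted arrays and 1047 and 1208 in controls (-0.25 ± 0.13). A second bright Idh3b probe set differed by -0.04, with overlapping groups.

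**Figure D3:**
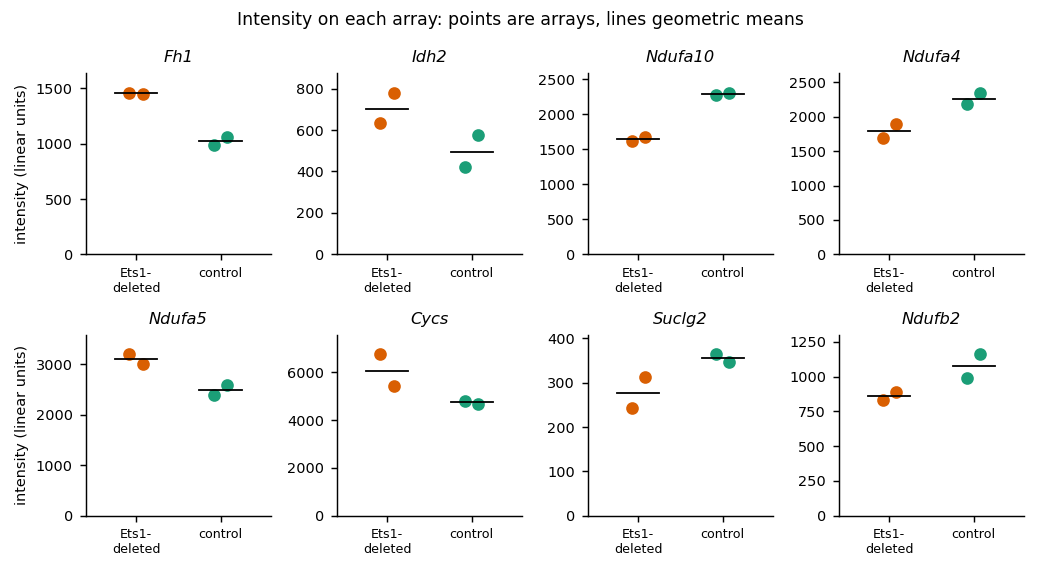
Intensity on each array (points, linear units, axes from 0) of the 4 called genes and of 4 genes with an adjusted p between 0.0525 and 0.069, Ets1-deleted on the left of each panel and control on the right; lines are geometric means. Fh1, Idh2, Ndufa5 and Cycs are higher, and Ndufa10, Ndufa4, Suclg2 and Ndufb2 lower, in both Ets1-deleted arrays than in both controls.

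Citrate synthase (Cs), the entry enzyme of the cycle, read 3003 and 2722 in Ets1-deleted arrays and 2732 and 2861 in controls, so the groups overlapped. Its other probe sets differed by 0.23, without overlap, and by 0.08, with overlap. The genes of the oxoglutarate dehydrogenase complex were not called: Ogdh read 469.9 and 485.4 in Ets1-deleted arrays and 489.8 and 478.2 in controls, Dlst differed by -0.09 and Dld by 0.23 ± 0.12. Succinyl-CoA ligase pairs an alpha subunit (Suclg1) with an ATP-forming (Sucla2) or a GTP-forming (Suclg2) beta subunit. Suclg2 read 243.4 and 313.7 in Ets1-deleted arrays, against 364.8 and 347.7 in controls (-0.37 ± 0.13, limma adjusted p = 0.0605). Its other probe set read 211.3 and 200.2 in Ets1-deleted arrays and 266.5 and 401.9 in controls (-0.67, adjusted p = 0.0102 in the limma fit of single probe sets), and with the mean over both the gene passed (-0.52, adjusted p = 0.0082 in limma). Suclg1 gave 0.24 ± 0.12 (limma, adjusted p = 0.178), and Sucla2 read 819.1 and 838.5 in Ets1-deleted arrays and 770.0 and 820.4 in controls. The malate dehydrogenase gene of mitochondria, Mdh2, read 5465 and 5317 in Ets1-deleted arrays and 4630 and 4895 in controls (0.18 ± 0.11), and the cytosolic Mdh1, part of the malate-aspartate shuttle, had overlapping groups.

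**Figure D4:**
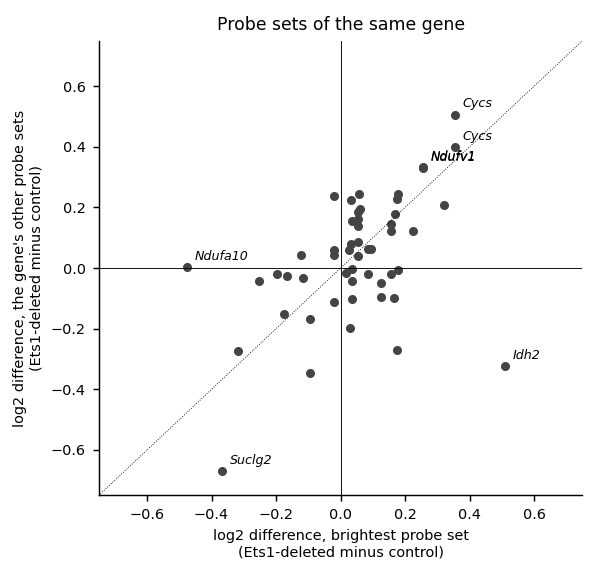
Log2 difference, Ets1-deleted minus control, of a gene's brightest probe set (horizontal axis) against that of each of its other probe sets over the brightness limit (vertical axis); the dotted line marks equal values. Idh2 lies far from the line with opposite signs (0.51 and -0.32), the Cycs and Ndufv1 points lie above 0 on both axes, and the Suclg2 point below 0 on both.

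Of the 53 genes, 35 had more than 1 probe set over the limit, and in 14 of these the probe sets differed in sign. The largest difference among these probe sets was -0.67, in the second Suclg2 probe set, a size beyond 1.5-fold. The representative probe sets of 6 genes (Cox7c, Ndufa2, Sdha, Suclg2, Uqcrh, Uqcrq) carry the array maker's suffix for probes shared by several genes or transcripts, and those of 4 more (Cox5b, Mdh1, Ndufs8, Ndufv1) the suffix for probes that can match other sequences, so signal from related copies cannot be separated there.

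Genes around the chain were taken from lists of the same pathway. Of the 16 ATP synthase genes 0 were called in limma, against 26.7% of all tested genes, with 2 at an unadjusted p under 0.05 and a median of 0.01. Atp5e, the epsilon subunit gene, came nearest, with 5931 and 5863 in Ets1-deleted arrays and 6961 and 7353 in controls (-0.28 ± 0.11, limma adjusted p = 0.0806). Atp5pb, Atpif1 (the inhibitor of the enzyme) and Atp5g3 followed with 0.24, 0.21 and 0.21. Of 33 assembly factor genes, 1 rose and 2 fell (9.09%, against 26.7% of all tested genes). Nubpl, which inserts iron-sulfur clusters into complex I, read 357.0 and 356.6 in Ets1-deleted arrays, against 186.1 and 198.9 in controls (0.89 ± 0.11, limma adjusted p = 7.31e-05). Surf1, a complex IV assembly factor, read 627.5 and 642.1 in Ets1-deleted arrays and 861.6 and 1018 in controls, and Sdhaf4, which helps mature the Sdha protein, fell by 0.60, a call lost without control replicate 2 (-0.43, limma adjusted p = 0.0566). Ndufaf5, an assembly factor of complex I, gave -0.30.

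Chain subunits outside the 55 genes had 5 rises and 0 falls among 21 tested, a called share of 23.8% that lies near the 26.7% of all tested genes. Cox7a1 and Cox6a2, complex IV isoforms known from heart and skeletal muscle, rose by 1.38 ± 0.12 and 0.56 ± 0.12. Cox7a1 read 258.6 and 215.0 in Ets1-deleted arrays, while its controls (87.4 and 93.4) lay under the limit: it passed the brightness filter only through the Ets1-deleted arrays, and its fitted size is not exact. Cox4i2, an isoform known from lung and from low oxygen, read 135.4 and 130.7 in Ets1-deleted arrays and 96.4 and 99.2 in controls. It rose by 0.44, a call lost without control replicate 1 (0.42). Its control values lay on either side of the limit, so the size is not exact. Over the alternative settings that tested Cox4i2 its difference ran from 0.42 to 0.89. A pair of ubiquitous complex I subunit genes rose as well: Ndufb6 read 1774 and 1811 in Ets1-deleted arrays, against 1308 and 1158 in controls (0.54 ± 0.11), and Ndufs5 rose by 0.51. Their adjusted p values in limma lay between 4.95e-06 and 0.00938.

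Genes that bring fuel to the cycle had 7 rises and 1 fall among 28 tested (28.6%, near the 26.7% of all tested genes), with a median of 0.17. Pdp1 read 215.8 and 188.2 in Ets1-deleted arrays, against 104.9 and 106.9 in controls (0.93 ± 0.12, limma adjusted p = 7.94e-05). Its controls lay near the limit, and its difference ran from 0.70 to 1.54 over the alternative settings that tested it. Pdp1 encodes the phosphatase that activates pyruvate dehydrogenase. Pdk1, a kinase that inhibits the same enzyme, rose by 0.63 ± 0.11, while Pdk2, another such kinase, fell by 0.60 on values of 92.3 and 89.3 in Ets1-deleted arrays and 158.4 and 119.8 in controls. The Ets1-deleted values lay under the limit, so Pdk2 passed the filter only through the controls and the size is not exact; its call was lost without control replicate 1 (-0.40, limma adjusted p = 0.0779). Mpc1, a subunit of the mitochondrial pyruvate carrier, read 846.1 and 751.1 in Ets1-deleted arrays and 495.8 and 543.4 in controls, a rise of 0.62. The other called genes of this list were Acadl, Acadvl, Hadhb and Acadm, which encode enzymes of fatty acid oxidation, while Slc25a20, Cpt1a, Cpt2 and Hadha of the same pathway did not pass. Acadl rose by 0.80 ± 0.12, Acadvl by 0.40, Hadhb by 0.37 and Acadm by 0.36, the last 3 with adjusted p values between 0.0206 and 0.0349 in limma whose calls were lost without control replicate 1 (0.33, 0.40 and 0.28 on the log2 scale) and under other settings.

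**Figure D5:**
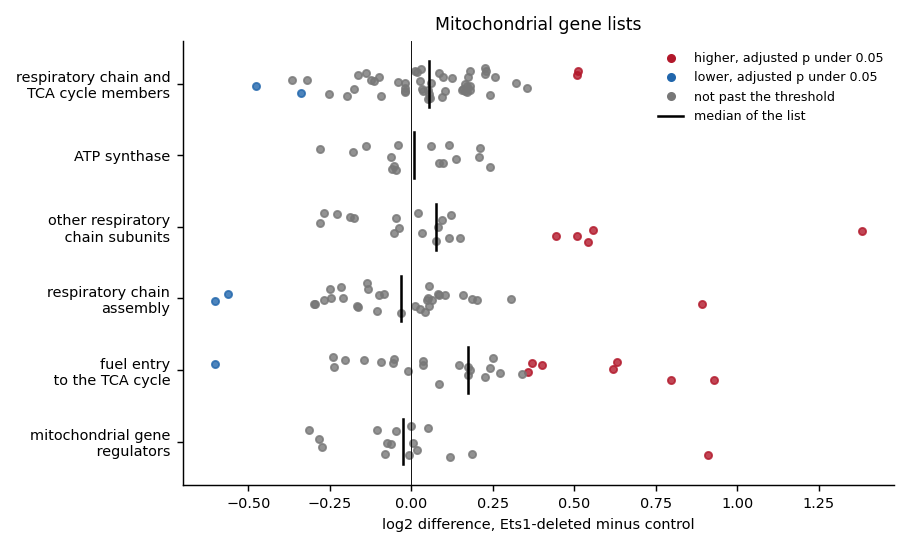
Log2 difference, Ets1-deleted minus control (horizontal axis), of each tested gene (points) in the 53 genes and in 5 further mitochondrial lists (rows, with points spread vertically for view only); black lines are medians. Coloured points passed an adjusted p of 0.05; the medians run from -0.03 to 0.17, and the point farthest right is Cox7a1, whose controls lay under the brightness limit.

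Regulators of mitochondrial genes had 1 rise and 0 falls among 16 tested (6.25%, against 26.7% of all tested genes). The rise was Hif1a, which encodes the oxygen-regulated factor that favours glycolysis over respiration, with 3557 and 3810 in Ets1-deleted arrays and 1900 and 2018 in controls (0.91 ± 0.11, limma adjusted p = 6.88e-05). Gabpa, the ETS-family subunit of GABP, read 795.6 and 669.5 in Ets1-deleted arrays and 743.8 and 792.3 in controls; its difference was -0.07 ± 0.12, and 0.01 with the mean over its probe sets. Its partner genes Gabpb1 and Gabpb2 gave 0.12 and -0.31 (limma, adjusted p = 0.0561 for Gabpb2). Nrf1 gave -0.27 ± 0.14 and was called only without Ets1-deleted replicate 1 (-0.48, limma adjusted p = 0.0152), against -0.063 without Ets1-deleted replicate 2. The coactivator gene Ppargc1b gave -0.28 ± 0.14 and was called only without control replicate 2 (-0.45, limma adjusted p = 0.0412), against -0.11 without control replicate 1. Its relative Ppargc1a was under the limit in all 4 arrays and was not tested. The mitochondrial transcription and replication genes Tfam, Tfb1m, Tfb2m, Polrmt, Polg and Twnk lay between -0.11 and 0.19, and Myc, Yy1, Esrra and Pprc1 between -0.05 and 0.02.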

How the data were processed

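The authors deposited 1 intensity value per probe set and array, made with RMA per the submitters' processing notes; its software and version are not stated there. Values run from 39.47 to 23291.29 on what their range shows to be a linear scale, with array medians of 96.5 to 97.7, and were turned into log2 without further normalization. Of 45101 probe sets, 34958 had 1 gene symbol in the platform annotation, 932 had several and 9211 were not listed. Each gene was read from its probe set with the highest mean log2 over the 4 arrays, and tested where that mean reached the median (50th percentile) of all probe sets, 97.44 intensity units.

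The test was two-sided, with lmFit and eBayes of limma 3.58.1 (R 4.3.3), for Ets1-deleted minus control. All 10873 genes were fitted together, with Benjamini-Hochberg adjustment and a threshold of 0.05 (2 residual and 9.75 prior degrees of freedom). The smallest p of an exact permutation test here would be 0.333. No label says that replicates are different mice or cultures: the p-values cover the spread among these arrays, perhaps a technical one, and so few arrays limit precision. The code was tested on simulated data.

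The genes, lists and alternatives were chosen with earlier results of these data known. Named from the further lists were called genes, the 4 of smallest p and all regulators.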

Additional observations from a re-analysis of the deposited data

How the results depend on the processing

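Across 14 alternative settings, 44 of the 53 genes were never called and 2 (Fh1, Ndufa10) always; of the 21 genes with overlapping groups, 19 changed sign at least once. Median centring gave 4 higher and 1 lower (9.43%, against 26.8% of all tested genes), with 1 complex I gene and Cycs among the rises. Without the brightness filter 2 were higher and 1 lower (5.66%, against 15.9%), and with the array floor subtracted 1 and 1 (3.77%, against 22.9%). An intensity trend gave 4 and 2 (11.3%, against 26.7%), and a threshold of 0.1 gave 4 and 4 (15.1%, against 33.7%). Leaving out single arrays gave 1 to 2 higher, 1 to 3 lower and a median of 0.0205 to 0.0583. Complex I medians then ran from 0.0127 to 0.0611, complex III from 0.127 to 0.179 and TCA cycle medians from 0.0283 to 0.151. The TCA median was 0.0512 with repeated quantile normalization and the complex II median 0.14 with the mean over probe sets. The replicate numbers are not stated to pair arrays; same-numbered deviations correlated at 0.167 over tested genes and 0.548 over the 53 genes, and a replicate block gave 4 higher and 4 lower, adding Cycs, Ndufa5, Ndufb2 and Suclg2 (15.1%, against 29.9% of all tested genes). Of the 33 assembly genes, 1 was higher and 2 lower in the main fit. With the mean over probe sets these counts were 2 and 7, when 29.4% of all tested genes were called. The low called share of the assembly list was thus not kept there. At a threshold of 0.1 it had 2 and 4, when 33.7% of all tested genes were called. The other chain subunits had 3 higher with the stricter filter, against 5 in the main fit (28.3% of all tested genes called with that filter). The fuel list had 4 higher with the floor subtracted, against 7 (22.9% of all tested genes called with that setting). Calls lower in the fuel list ran from 0 to 2, and in the regulator and ATP synthase lists from 0 to 1. The motif shares were 38.6% for CCGGAA and 65.9% for CGGAA (interval 51.1 to 78.1%), against 32.6% and 55.7% of tested genes.

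Log2 differences changed sign for Idh3g (-0.0119) and Pprc1 (-0.00217) with repeated quantiles, Myc (0.00922) and Tfb1m (0.0139) with centring, and Ndufs4 (-0.00229), Cox5b (-0.00983), Atpif1 (-0.00453), Gabpa (0.00827) and Esrra (-0.0954) with the mean over probe sets. When single arrays were left out, values on both sides of 0 were found for Tfb2m (-0.316 to 0.156), Polg (-0.256 to 0.135), Tfb1m (-0.135 to 0.132), Gabpa (-0.197 to 0.0516), Yy1 (-0.136 to 0.043), Myc (-0.211 to 0.199), Esrra (-0.0652 to 0.102) and Pprc1 (-0.0425 to 0.0519). The causes were not tested, and signal near background limits the dim genes.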
